A study of Mus musculus with 2 samples.

Results

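The cytosolic and mitochondrial heat shock chaperones, 41 of the 22421 genes listed, were taken by symbol from the deposited tables, with 1 transcript per gene, the one with the highest summed value. The tables hold RNA levels of CGR8, a line of mouse embryonic stem cells that was kept without feeder cells, in serum with leukaemia inhibitory factor, on gelatin. The groups were cells given a negative control siRNA and cells given an siRNA against Set1a, listed as Setd1a, which encodes a methyltransferase of histone H3 lysine 4. Cells of both groups were transfected 2 times, with a stated time of 72 hours, and share the line and the medium. Each group held 1 library, called the control library and the Set1a library here, so no difference has a replicate check or a p-value. A knockdown by siRNA leaves part of the transcript, and all cells came from 1 line.

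Heat shock chaperones bind unfolded or partly folded proteins. HSP70 proteins cycle on and off their clients with the help of J-domain proteins, which deliver clients and trigger ATP hydrolysis, and of exchange factors such as HSP110 and BAG proteins. HSP90 takes over part of these clients together with co-chaperones, and the ring-shaped TRiC complex folds actin, tubulin and other cytosolic proteins. Under proteotoxic stress the transcription factor HSF1 binds heat shock elements, inverted repeats of the unit GAA, before the genes of inducible chaperones. Embryonic stem cells are known for abundant chaperones.

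Levels are RPKM, reads normalised to transcript length and library depth, a scale on which genes can be compared, and pairs of values give the control library first. The depth was 6655821 reads in the control library and 6421185 in the Set1a library. Setd1a, the target named by the label, was lower in the Set1a library, at 14.2 and 11.97 RPKM from 559 and 456 reads. Its ratio was 0.846 (interval 0.746 to 0.959), so most of the transcript remained. Among all genes with a mean of 1 RPKM or more, 10.1% had an interval below 1. Whether the lower Setd1a value came from the siRNA was not tested. All 8 pluripotency markers chosen, Pou5f1 and Nanog among them, were measured, at 42.6 to 2004 RPKM in the control library, with a summed level of 3938 and 3602 RPKM. Sox2 had a ratio of 0.875 (interval 0.823 to 0.929) and Dppa5a one of 0.844 (interval 0.814 to 0.875), and the intervals of the other 6 included 1. Of the fibroblast, trophectoderm, primitive endoderm, neuroectoderm and mesoderm markers, none exceeded 3.22 RPKM (control library) or 3.89 RPKM (Set1a library). Of 6 fibroblast markers 3 were listed at 0 in both libraries, as were 2 of 4 trophectoderm markers. The summed level of the fibroblast markers was 2.52 and 4.22 RPKM, and that of the trophectoderm markers 5.77 and 7.67 RPKM, with Eomes at a ratio of 1.48 (interval 1.06 to 2.08). Sox2, Dppa5a and Eomes were named after their values were seen. The part of these differences in the chaperone values was not tested.

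Promoters of 34 of the 41 genes were matched by symbol in a RefSeq table of build GRCm38.p6, which differs from the build mm9 named by the submitters, so its coordinates apply to these sequences only. Hspa8, Hspa9, Hsp90aa1, Hsp90ab1, Hsf1, St13 and Cct4 had no entry. The 250 bases before each transcription start were searched on both strands for 2 adjoining units of a heat shock element, GAANNTTC or TTCNNGAA, and for 3 units, GAANNTTCNNGAA or TTCNNGAANNTTC, which contain the former. At least 1 window held 2 units in 13 of the 34 genes, 38.2%, against 14.5% of 27025 genes, and 3 units in Hspd1, Hspe1 and Dnajb6, 8.82% against 0.514%. These genes are not all separate observations, as Hspd1 and Hspe1 share their matches and the Hspa1a and Hspa1b windows are 98.8% identical. A match is a run of letters and does not show that a factor binds there.

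The promoters below are shown because they belong to the genes with the largest ratio (Hspa1a and Hspa1b) and to chaperones with the same motif whose ratios were smaller or below 1. Sequences run 5′ to 3′ on the strand of the gene, with the 2-unit matches in capitals. Hspa1a is at chr17:34972157-34972406 and Hspa1b at chr17:34959239-34959488, both on the minus strand, and Hspb1 is at chr5:135887669-135887918 on the plus strand. Pieces of 30 bases are given for Hspe1 (chr1:55088053-55088082, plus strand), Hsph1 (chr5:149636351-149636380, minus strand) and Dnajb6 (chr5:29735843-29735872, plus strand), where annotated exons overlap the 250 bases.
Hspa1a: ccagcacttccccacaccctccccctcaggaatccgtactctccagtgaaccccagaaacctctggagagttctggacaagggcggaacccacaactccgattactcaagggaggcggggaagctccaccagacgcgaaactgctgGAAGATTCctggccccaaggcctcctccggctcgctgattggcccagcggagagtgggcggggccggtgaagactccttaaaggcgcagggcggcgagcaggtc
Hspa1b: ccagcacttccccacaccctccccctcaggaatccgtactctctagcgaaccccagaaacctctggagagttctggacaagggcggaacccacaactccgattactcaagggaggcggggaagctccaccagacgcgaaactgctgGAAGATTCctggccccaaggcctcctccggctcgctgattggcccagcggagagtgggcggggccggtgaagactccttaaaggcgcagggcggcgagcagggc
Hspb1: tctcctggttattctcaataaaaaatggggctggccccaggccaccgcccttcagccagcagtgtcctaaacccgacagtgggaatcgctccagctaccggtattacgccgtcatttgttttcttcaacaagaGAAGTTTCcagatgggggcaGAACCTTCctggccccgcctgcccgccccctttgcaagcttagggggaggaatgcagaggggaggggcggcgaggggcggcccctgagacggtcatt
Hspe1: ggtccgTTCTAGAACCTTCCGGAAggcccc
Hsph1: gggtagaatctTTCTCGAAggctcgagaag
Dnajb6: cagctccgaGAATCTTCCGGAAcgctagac
The Hspa1a and Hspa1b windows differed at 3 of 250 bases, C44T, T47C and T249G, with the Hspa1a base first and positions counted from 1 at the 5′ end of the window. The match at position -104 from the start was the same in both. Hspe1 and Hspd1, which lie head to head, share the run of overlapping matches shown for Hspe1.

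The inducible HSP70 genes showed the largest ratios among the chaperones. Hspa1a had a level of 1.56 RPKM from 29 reads in the control library and one of 5.84 RPKM from 105 reads in the Set1a library. The ratio of the levels, Set1a library over control library, was 3.75, with an exact 95% interval of 2.47 to 5.87 that covers counting error only. Hspa1b was at 1.66 and 6.43 RPKM, from 31 and 116 reads, a ratio of 3.88 (interval 2.59 to 5.97). Both genes encode the major stress-inducible cytosolic HSP70, and both were low in the control library and higher in the Set1a library. Their transcripts are 99.2% identical in the aligned part and their read numbers nearly match, so a read may have been counted at both, and the pair is at most 1 observation if so. In bulk RNA, more cells with the transcript and more transcript per cell cannot be told apart.

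**Figure D1:**
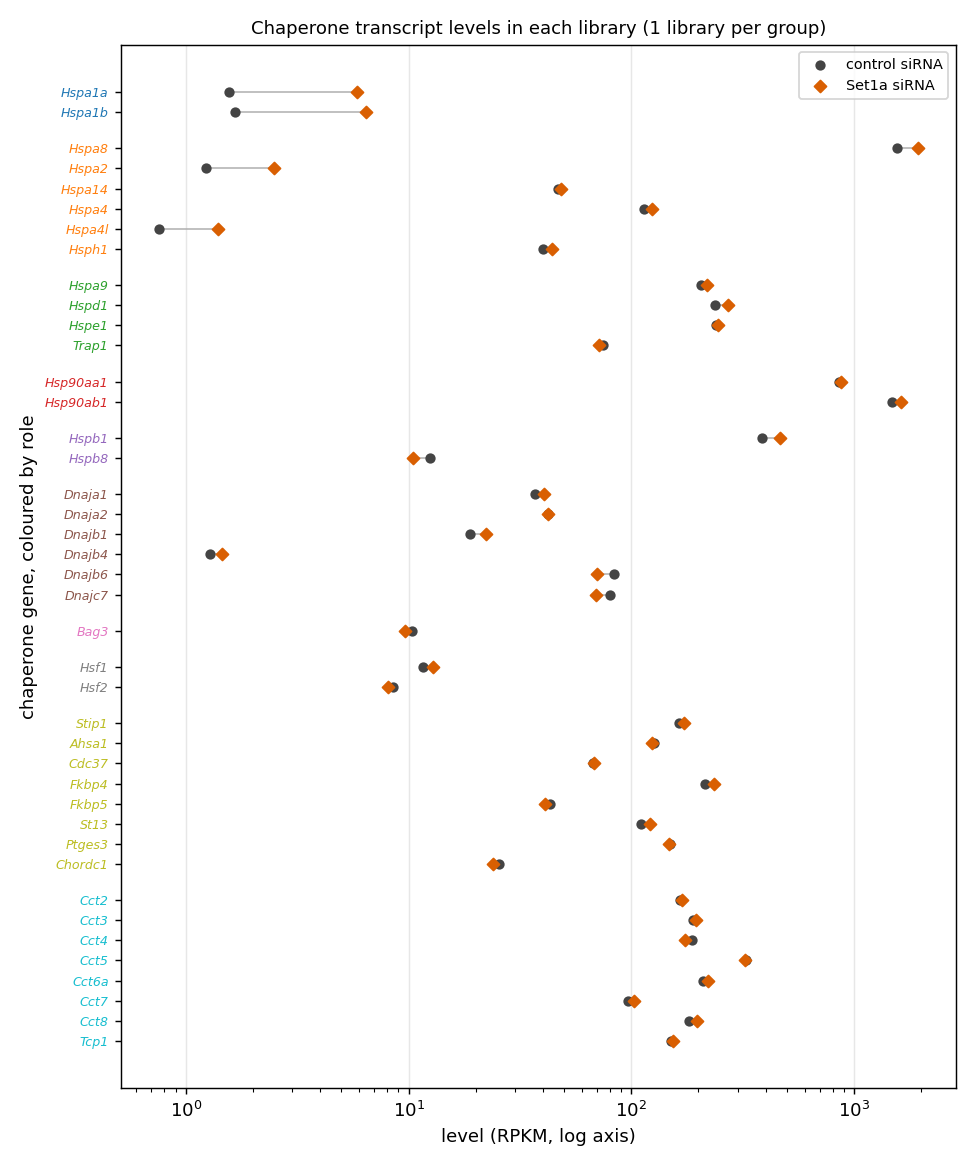
Level of each chaperone gene in RPKM on a log axis, with the control library as a circle and the Set1a library as a diamond, grouped by role. Hspa1a and Hspa1b are among the lowest genes and have the widest gap between symbols, from 1.56 and 1.66 RPKM with the control siRNA to 5.84 and 6.43 RPKM with the Set1a siRNA, whereas most other pairs of symbols nearly overlap.

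Among the other cytosolic HSP70 and HSP110 genes, 6 of 6 had a higher level in the Set1a library, 1 of which, Hspa4l, reached the mean of 1 RPKM only through that library. Their median log2 fold, log2((Set1a library RPKM + 1)/(control library RPKM + 1)), was 0.22, against 0.0063 over all genes with a mean of 1 RPKM or more, of which 51.2% were higher. The low genes Hspa2 and Hspa4l carried part of this median, which was 0.13 without Hspa4l, 0.13 with a floor of 5 RPKM and 0.14 with 5 RPKM added in place of 1. Hspa8, the constitutive HSC70 that carries most HSP70 work in unstressed cells, was at 1551 and 1925 RPKM, a ratio of 1.24 (interval 1.22 to 1.26). It was the most abundant of the 41 chaperones and held rank 20 by control level among the 11802 genes whose mean over both libraries was 1 RPKM or more. Its difference of 374 RPKM was far larger than the whole level of Hspa1a and Hspa1b, which summed to 3.21 and 12.3 RPKM. Hspa8 stood 482.5 times above this sum in the control library and 157 times in the Set1a library. The ratio of Hspa1b was 3.12 times that of Hspa8, with a counting interval of 2.10 to 4.65. Near-identical sequences of Hspa8 occur in 6 other annotated genes, 5 of them pseudogenes, and of Hspb1 and Hsp90aa1 in 2 and of Hspd1 and Hspe1 in 1 each, none listed in the tables. Reads of such copies may be counted in, or lost from, these values.

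Hspa2, an HSP70 best known from male germ cells, was at 1.23 and 2.49 RPKM, from 21 and 41 reads, a ratio of 2.02 (interval 1.17 to 3.60). A second listed transcript of Hspa2 had 18 and 41 reads, a ratio of 2.36 (interval 1.33 to 4.37). It may hold the same reads as the first, so it is not a separate observation. Hspa4l, an HSP110 relative, was at 0.760 and 1.40 RPKM, a ratio of 1.84 (interval 1.004 to 3.49) from 18 and 32 reads. Both genes were low in either library. The HSP110 exchange factors at higher levels had smaller ratios. Hspa4 was at 114 and 124 RPKM, a ratio of 1.09 (interval 1.03 to 1.15). Hsph1 (HSP105) was at 40.2 and 44.2 RPKM, a ratio of 1.10 (interval 1.004 to 1.20). Hspa14, which works at the ribosome, was at 46.6 and 48.5 RPKM, with an interval of 0.923 to 1.17.

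The HSP90 genes were the next most abundant, and the stress-inducible paralog was not the one with the larger ratio. Hsp90ab1, the constitutive HSP90β, was at 1480 and 1622 RPKM, a ratio of 1.10 (interval 1.08 to 1.12). Hsp90aa1, the inducible HSP90α, was at 855 and 876 RPKM, a ratio of 1.02 (interval 0.999 to 1.05). The ratio of Hsp90ab1 was 1.07 times that of Hsp90aa1 (interval 1.04 to 1.10), and its level exceeded that of Hsp90aa1 1.73-fold in the control library and 1.85-fold in the Set1a library.

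The 8 genes grouped as HSP90 co-chaperones were split, with 4 higher and 4 lower and a median log2 fold of -0.0060. St13 was counted among them, although it acts on HSP70. Fkbp4 (FKBP52), an immunophilin of steroid receptor complexes, was at 213 and 235 RPKM, a ratio of 1.10 (interval 1.05 to 1.16). St13 (Hip), which steadies HSP70 bound to its client, was at 111 and 121 RPKM, a ratio of 1.10 (interval 1.01 to 1.19). The intervals of the other 6 included 1, where 11% of all genes had an interval above 1 and 10.1% one below 1. Stip1 (HOP), the adaptor between HSP70 and HSP90, was at 164 and 172 RPKM and Ptges3 (p23), which binds the closed HSP90 dimer, at 149 and 147 RPKM. Ahsa1, the activator of the HSP90 ATPase, was at 127 and 123 RPKM, and Cdc37, which brings kinases to HSP90, at 67.5 and 68.0 RPKM. Fkbp5, an immunophilin and a glucocorticoid target, was at 43.0 and 40.8 RPKM and Chordc1 at 25.5 and 24.0 RPKM.

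Among the small heat shock proteins, which hold unfolded proteins without ATP, the abundant member was higher. The direction of the scarce member was within counting error. Hspb1 (HSP25) was at 386 and 464 RPKM, a ratio of 1.20 (interval 1.14 to 1.27) from 2318 and 2692 reads. Hspb8, the partner of BAG3, was at 12.5 and 10.5 RPKM, a ratio of 0.837 whose interval of 0.654 to 1.07 included 1.

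J-domain genes also went both ways, with 3 of 6 higher and 3 lower. Dnajb1 (HSP40), the J-domain partner induced with HSP70, was at 18.8 and 22.4 RPKM, a ratio of 1.19 (interval 1.01 to 1.40), far below the ratio of Hspa1b. Dnaja1, a partner of HSC70, was at 36.8 and 40.5 RPKM, a ratio of 1.10 (interval 1.02 to 1.19). Dnaja2 was at 42.2 and 42.1 RPKM, and Dnajb4, at 1.28 and 1.45 RPKM from 21 and 23 reads, had an interval of 0.601 to 2.16. Dnajc7, which links HSP70 and HSP90, was lower in the Set1a library, at 79.9 and 69.3 RPKM, a ratio of 0.868 (interval 0.798 to 0.944).

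Dnajb6, a suppressor of protein aggregation, depended on the transcript. The pair of listed forms with the highest level had the same reads, 917 and 741, and stood at 83.9 and 70.3 RPKM and at 83.8 and 70.2 RPKM, a ratio of 0.838 (interval 0.759 to 0.924). The form with the most reads, 980 and 931, was at 54.4 and 53.5 RPKM, a ratio of 0.985 (interval 0.899 to 1.08). The remaining form was at 40.9 and 41.7 RPKM, a ratio of 1.02 (interval 0.850 to 1.22). The lower value of Dnajb6 therefore belonged to 1 pair of forms, which may share exons and reads with the others.

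The heat shock factor genes and Bag3 stayed close to a ratio of 1. Hsf1, the main heat shock factor, was at 11.6 and 12.9 RPKM, a ratio of 1.11 (interval 0.887 to 1.39). Hsf2, a developmental heat shock factor, was at 8.48 and 8.07 RPKM, a ratio of 0.952 (interval 0.749 to 1.21). Bag3, a strongly HSF1-dependent exchange factor, was at 10.4 and 9.61 RPKM, a ratio of 0.927 (interval 0.744 to 1.15). Each value rests on 136 to 179 reads per library, so small differences were not detectable at this depth.

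**Figure D2:**
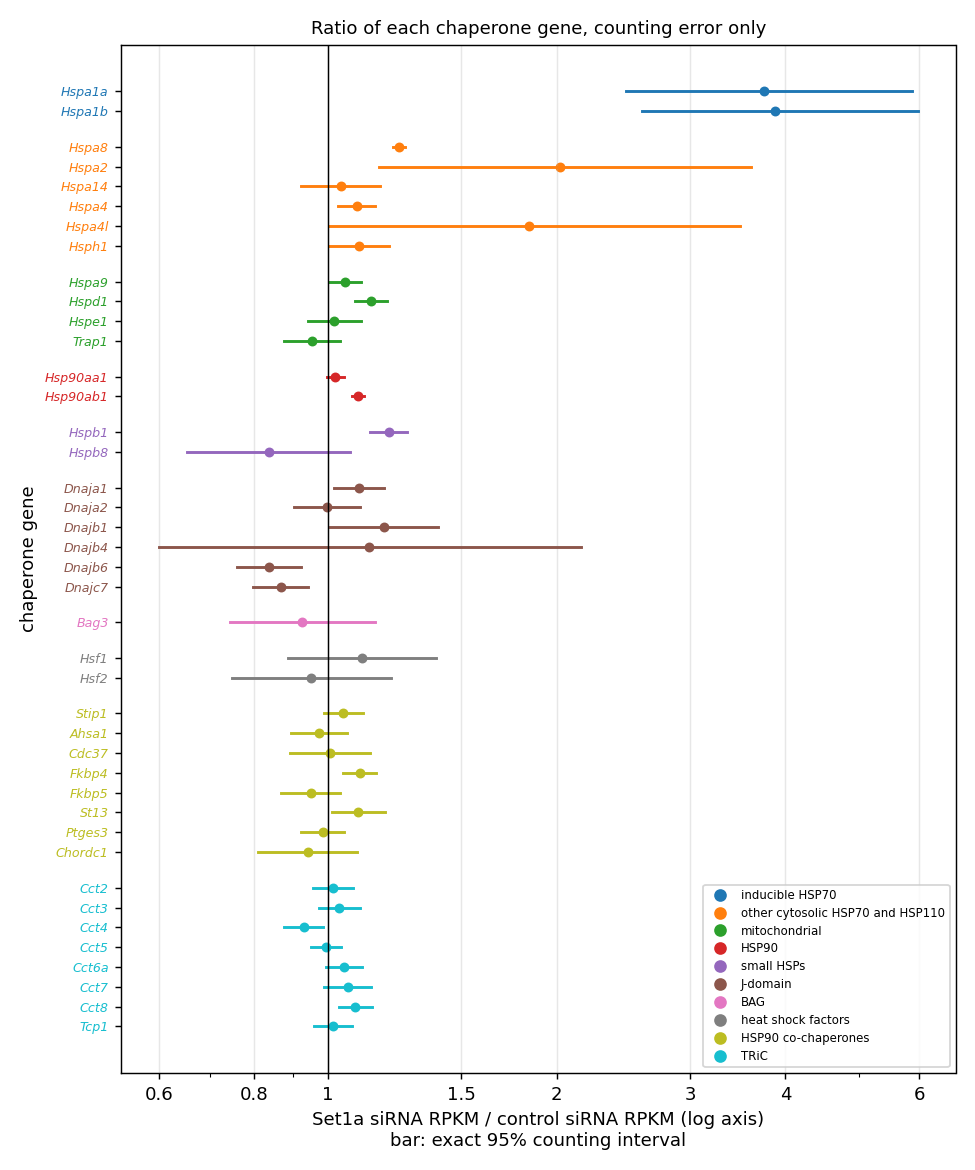
Ratio of the Set1a siRNA to the control siRNA level of each chaperone gene on a log axis, coloured by role; bars are exact 95% counting intervals and carry no variation between cultures. Hspa1a and Hspa1b lie at 3.75 and 3.88 with wide bars, Hspa8 and Hsp90ab1 have the narrow bars of abundant transcripts at 1.24 and 1.10, and the TRiC subunits lie between 0.930 and 1.09.

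In mitochondria, Hspd1 (HSP60) and its lid Hspe1 (HSP10) form the matrix chaperonin and are transcribed from a shared region. Hspd1 was at 238 and 271 RPKM, a ratio of 1.14 (interval 1.09 to 1.20), and Hspe1 at 240.4 and 245 RPKM, a ratio of 1.02 (interval 0.942 to 1.11). The ratio of Hspd1 was 1.12 times that of Hspe1, with an interval of 1.02 to 1.23, a difference barely outside counting error. Hspa9 (mortalin), the matrix HSP70, was at 206 and 217 RPKM, a ratio of 1.05 (interval 1.003 to 1.11). Trap1, the mitochondrial HSP90, was at 74.8 and 71.5 RPKM, a ratio of 0.955 (interval 0.877 to 1.04).

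The 8 measured TRiC subunits, Cct2 to Cct8 and Tcp1, lay near a ratio of 1, between 0.930 and 1.09, with a median log2 fold of 0.04. Their levels ran from 96.5 RPKM for Cct7 to 326 RPKM for Cct5 in the control library, a 3.38-fold range for subunits that join the complex in equal numbers, and the range was 3.17-fold in the Set1a library. Cct8 was at 181 and 197 RPKM, a ratio of 1.09 (interval 1.03 to 1.15), and Cct4 at 188 and 174 RPKM, a ratio of 0.930 (interval 0.878 to 0.986). The intervals of the other 6 included 1. Cct5 was at 326 and 325 RPKM, Cct7 at 96.5 and 103 RPKM, Cct3 at 188 and 195 RPKM, Cct6a at 209.6 and 220.4 RPKM, Cct2 at 165 and 168 RPKM, and Tcp1 at 151 and 153 RPKM.

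Over all 41 chaperones 28 were higher and 13 lower in the Set1a library, against 51.2% of the 11802 genes higher. Without Hspa4l 27 were higher and 13 lower. The median log2 fold, whose added 1 RPKM makes the change of low genes look smaller, was 0.07 over the chaperones and 0.0063 over all genes. On that scale at least 1.5-fold higher were 3 chaperones (Hspa1a, Hspa1b and Hspa2), where 2.77% of all genes were, and 0 were at least 1.5-fold lower, against 1.75%. At least 2-fold higher were Hspa1a and Hspa1b, against 0.771% of genes, and 0 were 2-fold lower, against 0.407%. The genes past 1.5-fold are among the 5 chaperones with a mean under 5 RPKM. Counted once, the near-identical pair leaves 1 gene past 2-fold.

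Counting intervals lay above 1 for 16 chaperones and below 1 for 3, against 11% and 10.1% of all genes. The 16 include Hspa4l, which reached the mean of 1 RPKM only through the Set1a library. They also include both Hspa1a and Hspa1b, which may hold the same reads. As chaperones are abundant and their intervals narrow, the 1130 genes whose mean was 50 RPKM or more are the closer reference. Among these, 18.2% had an interval above 1 and 26.9% one below 1, 46.3% were higher, and the median log2 fold was -0.01. Of the 25 chaperones at that level 9 had an interval above 1 and 3 one below 1, 18 were higher, and the median was 0.05. With 1 library per group, variation between cultures, which adds to the counting error, was not measured.

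**Figure D3:**
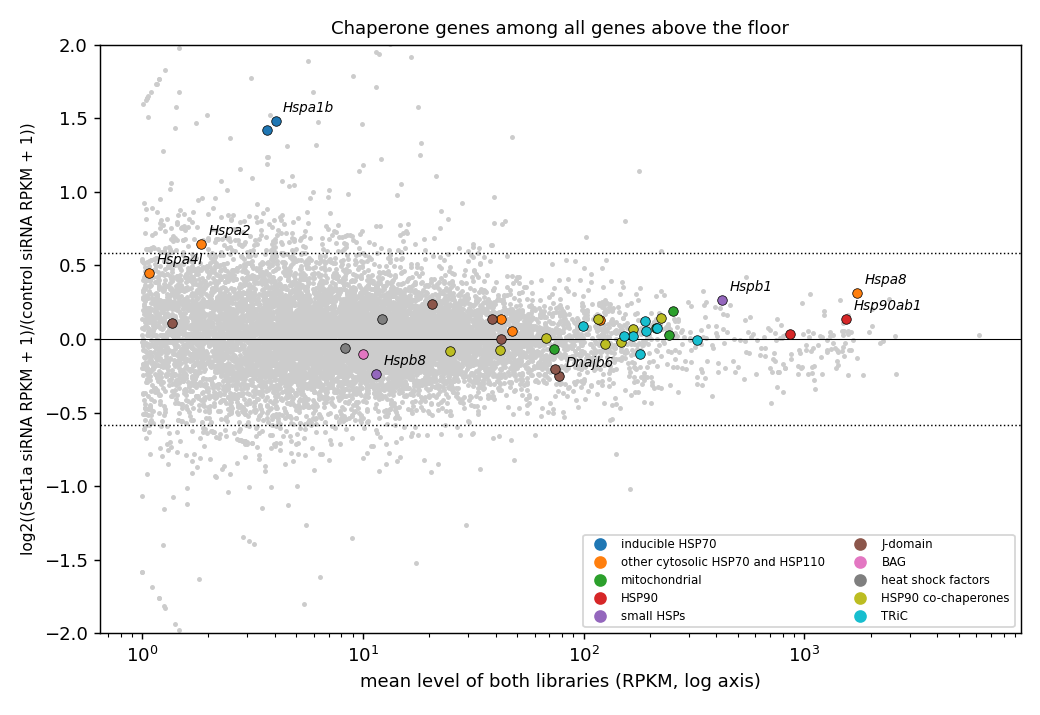
Log2 fold with 1 RPKM added to each value against the mean level of both libraries on a log axis, for all genes at or above 1 RPKM (grey) and the 41 chaperones (coloured by role); dotted lines mark 1.5-fold, and 49 genes lie outside the plotted range. Hspa1a and Hspa1b stand among low genes at log2 folds of 1.42 and 1.48, while the chaperones above 50 RPKM lie between -0.25 and 0.31.

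In summed level the chaperones made 2.08% of the RPKM of all genes in the control library and 2.30% in the Set1a library. The sum went from 7948 to 8681 RPKM, and Hspa8 alone made 51.1% of this difference, Hspa8 and Hsp90ab1 70.5%. Hspa8, Hsp90ab1 and Hsp90aa1 made 48.9% of the chaperone sum in the control library and 51.0% in the Set1a library. Without Hspa8 the sum had a ratio of 1.06.

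The 13 chaperones with a 2-unit heat shock element match had a median log2 fold of 0.13, 11 of them higher. The 21 with a window but no match had a median of 0.02, 11 of them higher, where 51.2% of all genes were higher. The 13 are not all separate observations, because of Hspd1 with Hspe1 and Hspa1a with Hspa1b. Folds of all genes with a match were not computed, and whether a match goes with the fold was not tested. The 7 chaperones without a window, whose promoters were not searched, had a median of 0.13, 6 of them higher, as high as the genes with a match. Without Hspa1a and Hspa1b the median of the genes with a match was 0.11. The genes with 3 units, Hspd1, Hspe1 and Dnajb6, had ratios of 1.14, 1.02 and 0.838. The value of Dnajb6 is that of its forms with the highest level, and its other forms had ratios of 0.985 and 1.02.

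Other genes of protein folding, taken from lists, differed among themselves. Of 15 chaperones of the endoplasmic reticulum, 13 were higher and 2 lower, with a median log2 fold of 0.26, and 11 had an interval above 1, where 51.2% of all genes were higher and 11% had such an interval (18.2% at 50 RPKM or more). Sdf2l1 was the listed gene past 1.5-fold at a mean of at least 5 RPKM, at 10.6 and 18.8 RPKM, a ratio of 1.78 (interval 1.34 to 2.39). Hspa5 (BiP), the HSP70 of that compartment, was at 84.1 and 118 RPKM, a ratio of 1.40 (interval 1.30 to 1.51), and was named after its value was seen. Of 8 other heat-responsive genes 7 were higher, against the same 51.2%, with a median of 0.15. The 7 include Ier5, at 0.781 and 1.24 RPKM, which reached the mean of 1 RPKM only through the Set1a library. Their intervals lay above 1 for 3 and included 1 for 5.

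More of the other cytosolic folding genes were lower than higher, where 51.2% of all genes were higher. Most of their intervals included 1, however. An interval below 1 was found for 10.1% of all genes and for 26.9% of those at 50 RPKM or more. Of the 6 prefoldin subunits, which hand nascent chains to TRiC, 5 were lower, with a median log2 fold of -0.10. Their intervals lay below 1 for 1 gene and included 1 for 5. Of 12 other HSP90 co-chaperones 9 were lower, with a median of -0.10, and intervals lay below 1 for 4 and included 1 for 8. Of 8 HSP70 exchange and regulatory genes 5 were lower, with a median of -0.10. Intervals of these lay below 1 for 2 and included 1 for 6. Among other J-domain genes 14 of 15 reached a mean of 1 RPKM, of which 9 were lower, with a median of -0.09. All 14 intervals included 1. Mitochondrial proteases and cofactors had a median of -0.05, with 7 of 11 lower and all 11 intervals including 1. Of 7 other small heat shock genes 3 were measured, all lower, with intervals that included 1.

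**Figure D4:**
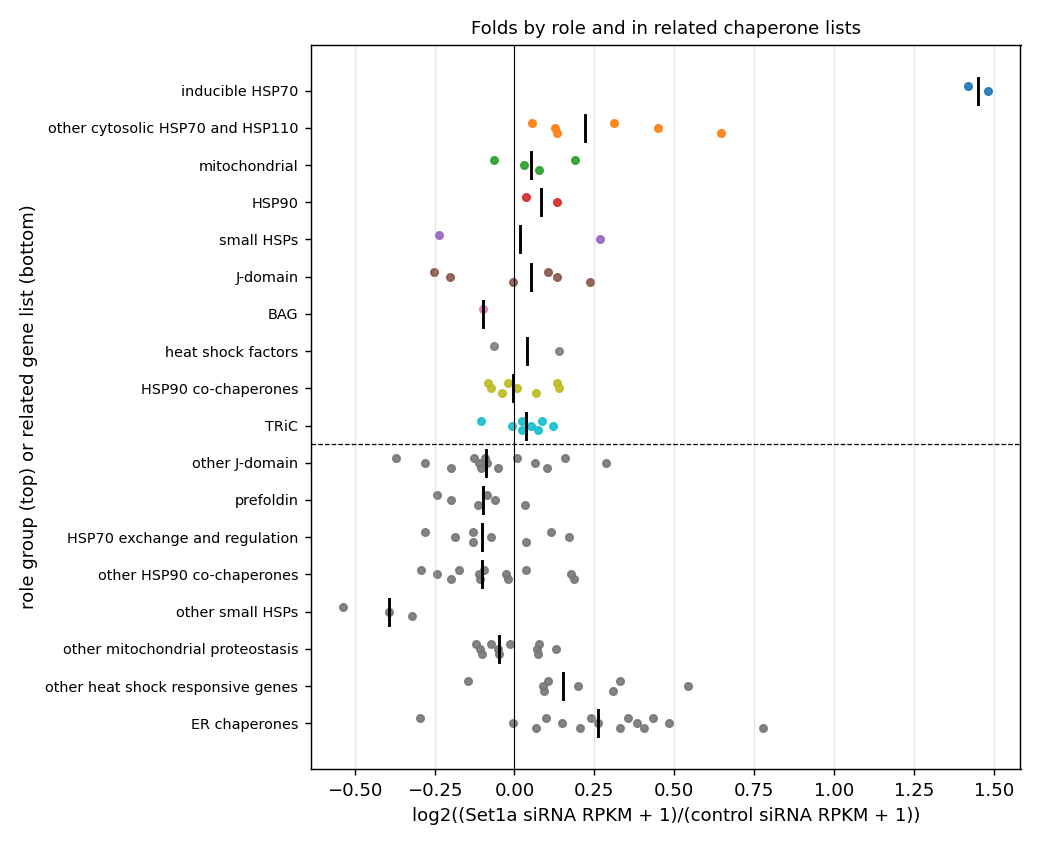
Log2 fold with 1 RPKM added to each value for each measured gene, by role of the 41 chaperones above the dashed line and by related gene list below it; vertical bars are medians. The inducible HSP70 pair has a median of 1.45 and the endoplasmic reticulum chaperones one of 0.26, whereas TRiC lies at 0.04 and prefoldin at -0.10.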

How the data were processed

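Transcript levels of 2 RNA-seq libraries, 1 per group, were used as deposited. The transfection labels gave the groups. The submitters' processing notes name SAMtools 0.1.16, TopHat2 2.0.12, TopHat and CASAVA, and the build mm9. The counting program, its use of strand and its treatment of reads with several matches were not given in the sources used here. The deposited values of 28430 RefSeq transcripts carry no header, and RPKM was inferred from them. Depths were computed from the size of the single-read step of value times annotated length. At annotated lengths, 48.6% (control) and 47.9% (Set1a) of the values worth about 1 to 5 reads lay within 0.01 of a whole read. To get read numbers a length was fitted per transcript, free to vary from the coding length up to 20000 bases. At a fitted length both libraries gave whole reads, within 0.0001 of a read or a relative 8e-06 where larger, for 99.955% of the 22360 transcripts above 0. A free length makes such a solution easy to find, so this share is no check of the unit. The shortest such length was taken, which gives the fewest reads and the widest interval; it had no rival near it for 18 of the 41 chaperones, and Hspa8 had 191 candidates. Read numbers of abundant genes are therefore lower limits, while levels and ratios do not depend on them.

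Symbols came from a RefSeq table of GRCm38.p6 and from GENCODE M21 (98.3% of transcripts). Intervals are exact Clopper-Pearson 95% intervals on these reads. The interval of the ratio between a pair of genes was exact for Hspd1 and Hspe1 and a normal approximation on the log scale for the other pairs. All cover counting error only. Near-identical genes were sought with BLAST 2.17.0 among GENCODE transcripts (95% identity over 50% of the transcript; 40 genes searched). Scripts ran in Python 3.11.15 and were tested on simulated data. The 41 genes, the related lists and the rule for named genes (all members, Setd1a, and up to 4 genes per list past 1.5-fold at a mean of at least 5 RPKM) were chosen with earlier results of these data known.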

Additional observations from a re-analysis of the deposited data

How the results depend on the processing

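The median log2 fold of the chaperones, 0.07, lay between 0.04 with a floor of 5 RPKM and 0.09 with scaling that left out the 50 most abundant genes, and that of all genes between -0.0027 and 0.022 under the same alternatives. The count of 2 genes at least 2-fold higher was 0 with a pseudocount of 5 RPKM, 0 with a floor of 5 RPKM, which removes Hspa1a and Hspa1b from the genes tested, and 1 with the pair counted once. It was 3 on the plain ratio with an interval that excludes 1. The count of 3 genes at least 1.5-fold higher was 0 with that floor and 2 with a pseudocount of 5 RPKM. It was 4 on the plain ratio and with a pseudocount of 0.1 RPKM. The gene added there was Hspa4l, which reached the mean of 1 RPKM only through the Set1a library. The shares of all genes past these folds were not computed under the alternatives, so these counts have no background beside them. With a pseudocount of 5 RPKM the log2 folds of Hspa1a and Hspa1b were 0.73 and 0.78. With the transcript of most reads that of Dnajb6 was -0.02 in place of -0.25. Removal of a trend in GC content and length, counting the pair once and leaving out Hspa4l were chosen after seeing the data. Of 444 recomputed gene folds 4 changed sign, those of Dnaja2, Cct5 and Ptges3, all near 0. Dnaja2 and Cct5 changed sign with the scaling that left out the 50 most abundant genes, which multiplied the Set1a values by 1.012. Dnaja2 and Ptges3 did so with the GC and length trend removed. Depth limits the genes near 1 RPKM most, with Hspa2, Hspa4l and Dnajb4 at about 20 control reads each. No paired analysis was possible because a group consisted of 1 library.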
